A study of Mus musculus with 11 samples.

Results

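Claudins are the membrane proteins that form the strands of the tight junction, the seal between neighbouring epithelial cells. The claudins a cell makes set what passes between cells. Some, such as claudins 1, 3, 4 and 7, are known mainly as sealing proteins, whereas claudin 2 and claudin 15 form pores for small cations and water. In the stomach, claudin 18 is the main claudin of the epithelium and is known for holding back acid, and its stomach form is made from a promoter of its own. Claudin 2 is best known from leaky epithelia such as the kidney proximal tubule and the intestinal crypt.

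The genes described here were 10 claudin genes (Cldn1, Cldn2, Cldn3, Cldn4, Cldn5, Cldn7, Cldn12, Cldn15, Cldn18 and Cldn23) of 33 claudin genes and 34866 genes in all in the deposited table. They were chosen by name and selected on earlier values of these libraries, in which Cldn2 was higher in every engineered line than in control. The values of the lines beside control are therefore given for these 10 genes as a description, and nothing rests on a test of that contrast. What is read from tests of these genes concerns only the differences between the lines. All 10 passed the filter on low counts, as did 14889 genes in all, but Cldn2, Cldn3 and Cldn4 passed only through the lines. Cldn2 and Cldn4 were high there. Of the controls, only control 2 reached the filter's level for Cldn1, Cldn5 and Cldn15, so these genes needed the lines too.

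RNA was sequenced from the mucosa of the gastric corpus, the acid-secreting body of the stomach, of mice of 4 genotypes. The WT mice served as control (n = 2). The ATP4B-DTR line (n = 3) was engineered for the removal of parietal cells, the GIF-DTR line (n = 3) for that of chief cells, and the GIF/ATP4B-DTR line (n = 3) for both. Values of the 3 lines are listed in this order. DTR is the receptor for diphtheria toxin, which lets the toxin kill the cells that carry it. Atp4b encodes a subunit of the proton pump of acid-secreting parietal cells, and Gif encodes intrinsic factor, which chief cells make in the mouse. How each receptor gene was built, toxin dose, time after toxin, age, sex, strain and whether the WT mice received toxin are not given in the sources used here.

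Library totals ran from 20.7 to 27.9 M counts, so that 3 counts, taken as the floor of detection, stood for 0.107 to 0.166 CPM (counts per mega-count after TMM scaling). Markers of the corpus were abundant in control. The summed level of 9 parietal cell genes was 17205 to 18483 CPM in control, 3628 to 5096 in ATP4B-DTR, 7960 to 10206 in GIF-DTR and 1633 to 2909 in GIF/ATP4B-DTR. For 6 chief cell genes it was 85896 to 192479, 17004 to 62016, 5108 to 22615 and 2823 to 12425 CPM in the same order. The 2 controls stood apart from each other in stromal genes, with summed levels of 49.3 and 500.1 CPM for 6 fibroblast genes and of 26.3 and 138 CPM for 10 endothelial genes in controls 1 and 2. The fibroblast sum was highest of all in GIF-DTR 1, at 730 CPM, and the lowest GIF-DTR sample had 217 CPM. The Y-linked genes Ddx3y and Eif2s3y were expressed in the 2 controls, ATP4B-DTR 1 and all 3 GIF/ATP4B-DTR samples and were at or near 0 in the other 5 libraries. All GIF-DTR libraries lacked them, so a difference of GIF-DTR from control or from GIF/ATP4B-DTR cannot be told apart from the difference in these genes. ATP4B-DTR 2 and ATP4B-DTR 3 lacked them as well, so differences of ATP4B-DTR from control or from GIF/ATP4B-DTR are partly confounded with it. In whole mucosa, a change in the share of a cell type and a change in RNA per cell cannot be told apart either.

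Cldn2 and Cldn4 are the members whose levels stood furthest from control, and the 250 bases before their RefSeq starts are shown for reference. The RefSeq start of Cldn2 lies upstream of the GENCODE start given with its values. They are RefSeq promoter sequences on GRCm38.p6, written 5′ to 3′ on the strand of the gene. Capitals mark the letters TATAAA (the TATA box) in Cldn2 and TGANTCA (the AP-1 motif) in Cldn4. Both motifs were chosen after the sequences had been seen.
Cldn2, chrX:139800558-139800807, plus strand: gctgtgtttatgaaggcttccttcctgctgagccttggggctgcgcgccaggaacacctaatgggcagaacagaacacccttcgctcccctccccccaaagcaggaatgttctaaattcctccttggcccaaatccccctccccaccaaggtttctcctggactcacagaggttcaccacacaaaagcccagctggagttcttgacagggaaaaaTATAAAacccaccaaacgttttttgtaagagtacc
Cldn4, chr5:134946935-134947184, minus strand: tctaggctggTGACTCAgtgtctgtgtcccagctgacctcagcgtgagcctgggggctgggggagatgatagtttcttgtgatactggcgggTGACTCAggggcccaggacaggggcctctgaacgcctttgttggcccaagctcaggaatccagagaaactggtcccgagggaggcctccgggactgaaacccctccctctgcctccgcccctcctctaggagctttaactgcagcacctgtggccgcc

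The TATAAA of Cldn2 begins 35 bases before the RefSeq start, and the matches of TGANTCA in Cldn4 begin 240 and 158 bases before it. Both strands were searched, and the motifs do not overlap. Of 32851 RefSeq promoters of the same length, 12.4% held TATAAA and 6.75% held TGANTCA. Of 13 promoters of the claudin genes described here, 1 held TATAAA (Cldn2) and 2 held TGANTCA (Cldn4 and Cldn15). These matches describe letters and not sites in use. Promoters were listed for 9 of the 10 genes, all but Cldn23.

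Cldn18 (ENSMUSG00000032473.13, chromosome 9, 99689461 to 99717267, minus strand), the claudin of the stomach barrier, held most of the claudin message in every library. Its level was 1834 and 1358 CPM in controls 1 and 2. The ATP4B-DTR samples held 1196, 1342 and 1184 CPM. Those of GIF-DTR held 1243, 1263 and 1071 CPM, and those of GIF/ATP4B-DTR held 1501, 1162 and 1567 CPM. All 3 ATP4B-DTR and all 3 GIF-DTR samples lay below both controls, while GIF/ATP4B-DTR overlapped them. The differences from control were −0.36, −0.42 and −0.18 on the log2 scale in the 3 lines. Over 20 alternatives they ran from −0.57 to −0.05, −0.62 to −0.06 and −0.38 to 0.15. The order against control 2 depended on the TMM scaling. Before it, control 2 had 24488 Cldn18 counts of 20.9 M and ATP4B-DTR 1 had 25687 of 20.7 M. GIF-DTR 1 had 26282 of 21.2 M. Control 2, at 1358 CPM, lay just above the highest ATP4B-DTR sample at 1342 CPM, and the 2 controls differed from each other by more than control 2 differed from any sample of these lines.

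Cldn12 (ENSMUSG00000046798.14, chromosome 5, 5489537 to 5514958, minus strand), a widely expressed claudin that has been linked to calcium passage, was the next most abundant. Control levels were 47.5 and 39.3 CPM, and the 9 samples of the lines lay between 34.2 and 42.4 CPM. Every line overlapped control. Control had a mean of 43.4 ± 5.80 CPM (SD, n = 2), and the lines had means of 39.7 ± 2.30, 36.5 ± 2.62 and 41.2 ± 1.37 CPM (SD, n = 3 each).

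**Figure D1:**
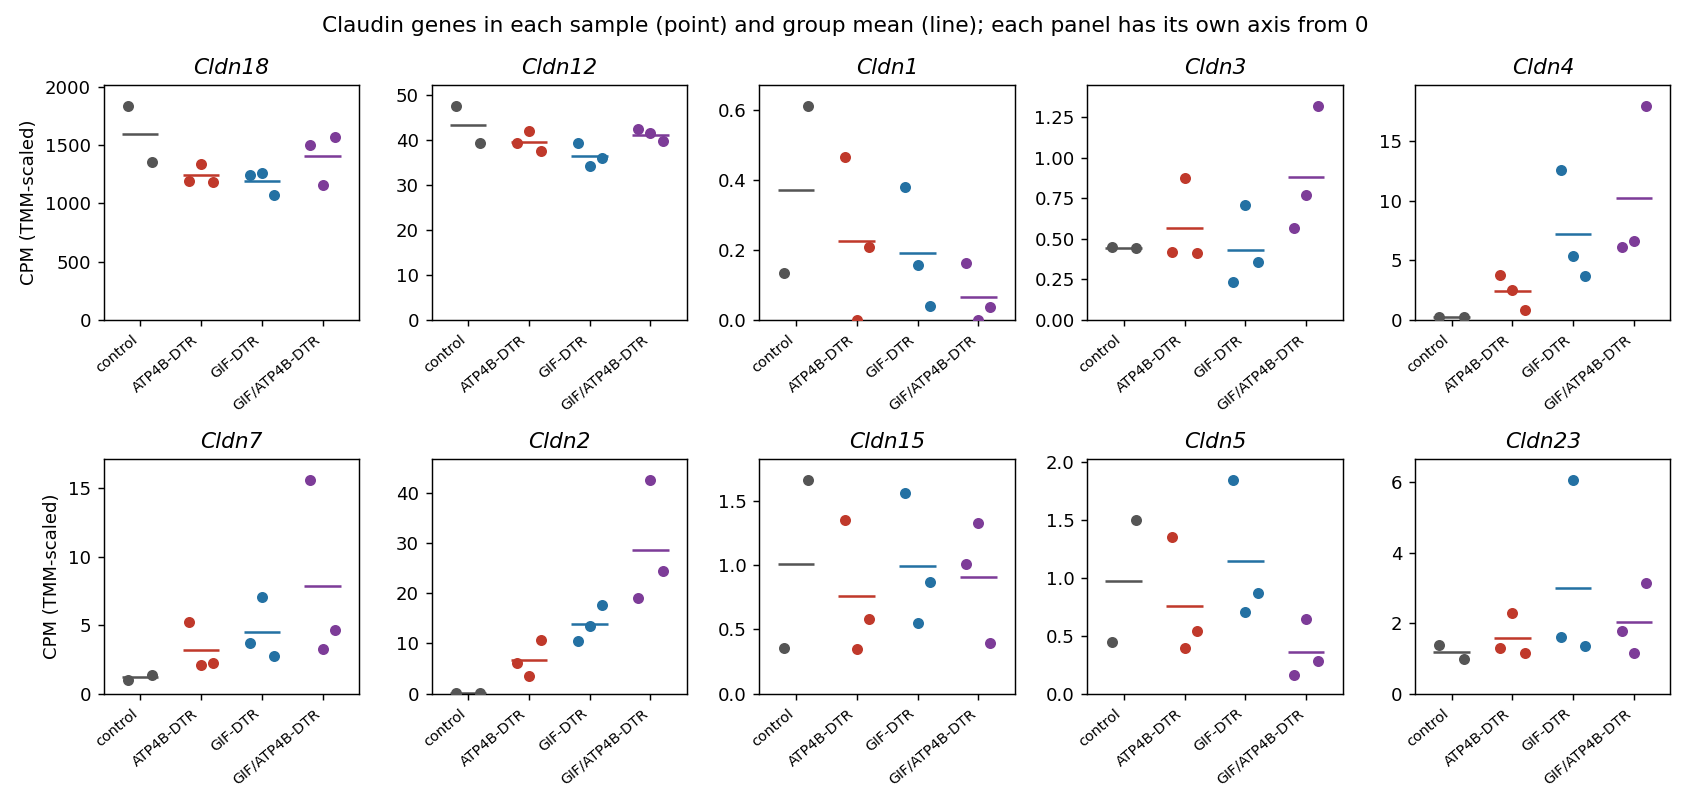
Each point is 1 sample and each line the mean of a genotype, with the TMM-scaled CPM of 10 claudin genes on a separate linear axis from 0 in each panel. Cldn2 lies at 0.11 to 0.13 CPM in control and at 3.51 to 42.5 CPM in the lines, whereas Cldn18 lies between 1071 and 1834 CPM and Cldn12 between 34.2 and 47.5 CPM in all 4 genotypes.

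The pore-forming Cldn2 (ENSMUSG00000047230.6, chromosome X, 139800828 to 139811386, plus strand) was close to undetected in control and present in every sample of the lines. It had 3 and 2 counts in controls 1 and 2 (0.13 and 0.11 CPM), which is at or under the floor of 3 counts. ATP4B-DTR samples had 131, 80 and 258 counts (6.10, 3.51 and 10.7 CPM). The GIF-DTR samples had 223 counts or more each (10.5, 13.5 and 17.6 CPM), and the GIF/ATP4B-DTR samples had 474, 994 and 685 counts (19.1, 42.5 and 24.4 CPM). No sample of a line came near the controls, and the lowest, ATP4B-DTR 2, still held 80 counts.

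Because the controls held only 5 Cldn2 counts together, the size of the difference is bounded mainly from below. The pooled count ratios to control were 55.3, 113 and 228 in the 3 lines. The exact 95% interval, which covers counting error only, reached down to 23.5, 48.4 and 97.4 and up to 171, 349 and 702 in the same order. Pooling leaves out the spread between the samples of a group, and PCR copies are not independent molecules. All such intervals given here are therefore too narrow as a statement on animals. The other pore former, Cldn15 (ENSMUSG00000001739.14), stood at 0.36 and 1.66 CPM in control and between 0.35 and 1.56 CPM in the lines. Every line overlapped the controls, whose own values stood furthest apart.

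Among the sealing claudins, Cldn4 (ENSMUSG00000047501.3, chromosome 5, 134945119 to 134946934, minus strand) had 6 and 5 counts in controls 1 and 2 (0.27 and 0.28 CPM). It had 82, 57 and 21 counts in ATP4B-DTR (3.82, 2.50 and 0.87 CPM), 266, 136 and 94 in GIF-DTR (12.6, 5.35 and 3.73 CPM) and 151, 155 and 504 in GIF/ATP4B-DTR (6.09, 6.63 and 17.95 CPM). Every sample of the lines lay above both controls, but the samples of each line were spread widely. The pooled count ratio to control was 8.57 (exact 95% interval 4.66 to 17.5) in ATP4B-DTR, 25.3 (14.0 to 51.1) in GIF-DTR and 38.9 (21.6 to 78.3) in GIF/ATP4B-DTR. These intervals too cover counting error only and leave out that spread.

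Cldn7 (ENSMUSG00000018569.12, chromosome 11, 69964779 to 69967885, plus strand), a claudin of the lateral membrane, was measurable in control at 1.03 and 1.39 CPM. The ATP4B-DTR samples had 5.21, 2.11 and 2.24 CPM, the GIF-DTR samples 3.74, 7.04 and 2.78 CPM, and the GIF/ATP4B-DTR samples 15.6, 3.29 and 4.63 CPM. All 9 samples of the lines lay above both controls. The mean of GIF/ATP4B-DTR, 7.85 ± 6.76 CPM (SD, n = 3), rested largely on GIF/ATP4B-DTR 1, and ratios of pooled counts to control were 2.63, 3.84 and 6.54 in the 3 lines.

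The remaining sealing claudins were low throughout. Cldn3 (ENSMUSG00000070473.4) was 0.45 and 0.44 CPM in control, 0.41 to 0.88 CPM in ATP4B-DTR, 0.24 to 0.71 CPM in GIF-DTR and 0.56 to 1.32 CPM in GIF/ATP4B-DTR. All 3 GIF/ATP4B-DTR samples lay above both controls, the other lines overlapped them, and the pooled counts behind these levels were 18, 39, 32 and 69. Cldn1 (ENSMUSG00000022512.2) had 3 and 11 counts in control, 10, 0 and 5 in ATP4B-DTR, 8, 4 and 1 in GIF-DTR and 4, 0 and 1 in GIF/ATP4B-DTR. In 5 of the 11 libraries it was at or under the floor, so no order of its levels can be read.

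Cldn5 (ENSMUSG00000041378.1), the claudin of blood vessel endothelium, was 0.45 and 1.497 CPM in control, 0.40 to 1.35 CPM in ATP4B-DTR, 0.71 to 1.84 CPM in GIF-DTR and 0.16 to 0.64 CPM in GIF/ATP4B-DTR. The summed level of 10 endothelial genes was 26.3 and 138 CPM in the controls and 23.6 to 46.7 CPM in ATP4B-DTR. It was 45.7 to 105 CPM in GIF-DTR and 15.2 to 35.8 CPM in GIF/ATP4B-DTR. This sum did not follow Cldn5 in every sample. Within ATP4B-DTR, Cldn5 was highest in sample 1 (1.35 CPM), but the sum was highest in sample 3, where Cldn5 was 0.54 CPM. All 10 endothelial genes were over the floor in at least 1 library, and their part in the level of Cldn5 was not tested. Cldn23 (ENSMUSG00000055976.6), a claudin found in the differentiated epithelium of the gut, was 1.39 and 1.00 CPM in control and 1.15 to 6.06 CPM in the lines. The highest value was that of GIF-DTR 2, the other 8 samples of the lines were at 3.13 CPM or less, and all 3 lines overlapped control.

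Seen against the other genes of these libraries, the number of the 10 claudin genes past the threshold against control is no result, since the choice used this contrast. At an edgeR adjusted p under 0.05, 2 of 10 passed in ATP4B-DTR (Cldn2 and Cldn4) where 21.6% of all genes did, 2 in GIF-DTR (again Cldn2 and Cldn4) against 16.8%, and 3 in GIF/ATP4B-DTR (with Cldn7) against 33.6%. In each line 4 of the 10 genes had no sample overlapping with control, against 48.5%, 48.0% and 56.3% of all genes. The median log2 difference of the 10 genes was 0.11, 0.11 and 0.34, against −0.01, −0.01 and −0.04 for all genes.

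Dividing counts by the exon length of each gene allows levels to be compared between claudins. The orders given here are those of the 10 listed genes alone. Outside them, Cldn8 had a mean of 2.34 CPM per kb of exon in control, above that of Cldn5, and 1.23 in GIF/ATP4B-DTR. In control the order of mean levels per kilobase of exon was Cldn18 (358 CPM per kb), Cldn12 (10.3), Cldn5 (0.69), Cldn23 (0.65), Cldn7 (0.62), Cldn15 (0.48), Cldn3 (0.35), Cldn4 (0.15), Cldn1 (0.077) and Cldn2 (0.037). From Cldn5 down to Cldn3 neighbours differed by less than their spread between samples. In GIF/ATP4B-DTR the order was Cldn18 (316), Cldn12 (9.75), Cldn2 (8.62), Cldn4 (5.63), Cldn7 (4.03), Cldn23 (1.09), Cldn3 (0.70), Cldn15 (0.43), Cldn5 (0.26) and Cldn1 (0.014). Of the 10, Cldn2 was last in control and next after Cldn12 in GIF/ATP4B-DTR. The SDs of Cldn2 and Cldn4 (both 3.69 CPM per kb, n = 3) and of Cldn7 (3.47) in GIF/ATP4B-DTR were larger than the gaps between neighbours from Cldn12 to Cldn7.

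As a share of all claudin reads per length, Cldn18 made up 95.7 ± 0.76% in control (SD, n = 2) and 93.8 ± 0.85%, 91.4 ± 0.27% and 90.6 ± 1.32% in the 3 lines (SD, n = 3 each). Its range did not overlap between control and any line. Cldn2 made up 0.0099% in control and 0.70%, 1.45% and 2.61% in the lines. With Cldn18 left out, Cldn12 held 64.1 ± 6.67% of the rest in control and 51.5 ± 6.10%, 34.5 ± 4.24% and 30.2 ± 2.35% in the lines, although its own CPM was nearly level. The share of Cldn2 in that remainder was 0.23% in control and 11.2 ± 6.65%, 17.0 ± 6.40% and 26.7 ± 11.7% in the lines. Cldn4 held 0.94%, 6.98 ± 3.80%, 15.3 ± 8.83% and 17.1 ± 10.4% in the same order. These shares use the same values as the choice of the genes and were not tested.

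**Figure D2:**
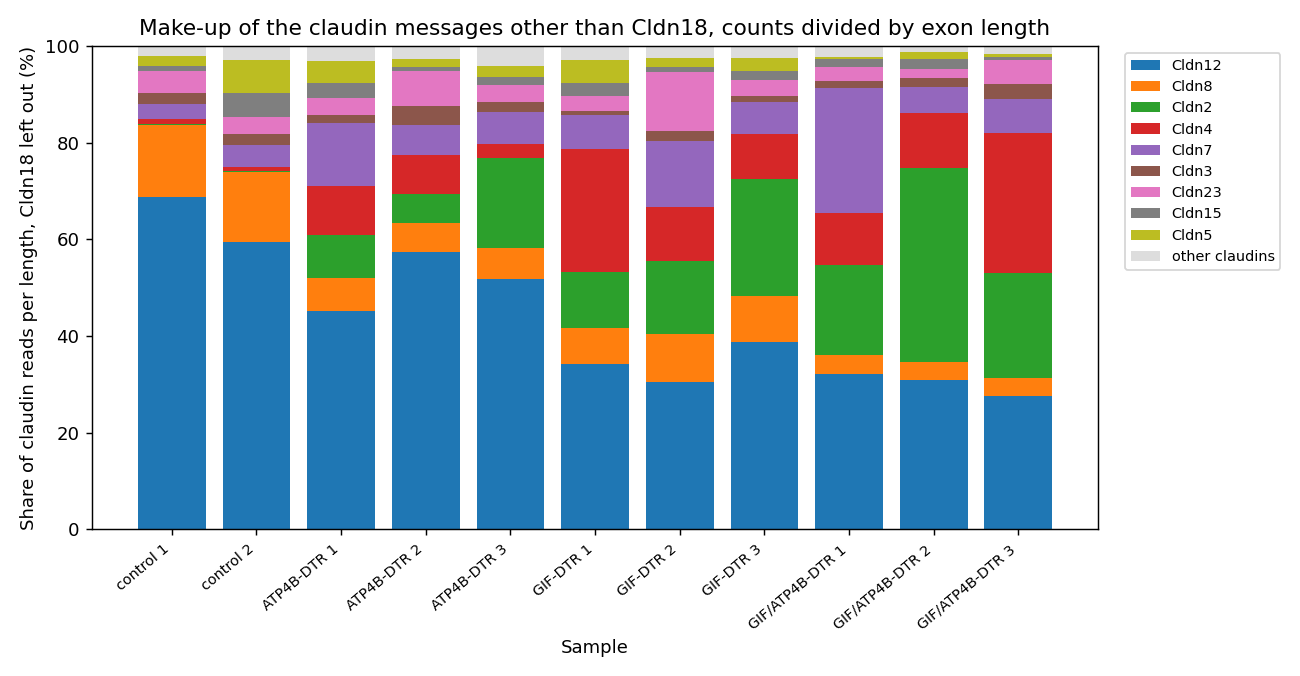
Each bar is 1 sample and shows how the claudin reads other than Cldn18, divided by exon length, were shared among claudin genes in percent. Cldn12 fills 68.8% and 59.4% of the control bars and 27.6% to 57.4% of those of the lines, and Cldn2, Cldn4 and Cldn7 together take a larger part of every bar of the lines than of the controls.

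Between the lines, where the genes could be tested, none of the 10 claudins passed edgeR's quasi-likelihood test after Benjamini-Hochberg adjustment over 14889 genes. The share of all genes called was 0.49% for GIF-DTR against ATP4B-DTR, 0.0% for GIF/ATP4B-DTR against ATP4B-DTR and 2.53% for GIF/ATP4B-DTR against GIF-DTR. At an unadjusted p under 0.05, 2 of the 10 passed in each comparison: Cldn2 and Cldn4 in the first and second, Cldn2 and Cldn5 in the third. Of all genes 9.81%, 10.4% and 18.0% passed unadjusted, so the count in the third was near the share of all genes. DESeq2 called 0, 2 and 0 of the 10 genes in the same order, against 2.4%, 1.96% and 6.17% of all genes with a DESeq2 adjusted p.

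Cldn2 was highest in GIF/ATP4B-DTR, with a log2 difference from ATP4B-DTR of 2.08 ± 0.40 (SE), a 4.23-fold difference, and no overlap of samples. Its edgeR adjusted p was 0.107. The DESeq2 adjusted p was 8.25e-05, and without ATP4B-DTR 3, the sample with the highest Cldn2 of its line, the edgeR adjusted p was 0.0435. Only these 2 of 19 alternatives called the difference, which ran from 1.68 to 2.58 over the 19. Against GIF-DTR the log2 difference was 1.05 ± 0.39 (edgeR adjusted p = 0.2), again without overlap. GIF-DTR lay 1.03 ± 0.40 above ATP4B-DTR (edgeR adjusted p = 0.412), with GIF-DTR 1 at 10.5 CPM just below ATP4B-DTR 3 at 10.7 CPM. The 3 lines were therefore ordered by their means for Cldn2, but the steps did not pass the test.

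Cldn4 in GIF/ATP4B-DTR was 2.10 ± 0.63 log2 units above ATP4B-DTR, without overlap (edgeR adjusted p = 0.255, DESeq2 adjusted p = 0.0222). Without GIF/ATP4B-DTR 3, the sample with the highest Cldn4, this difference was 1.41. GIF-DTR was 1.59 ± 0.62 above ATP4B-DTR with overlap by a single pair of samples, ATP4B-DTR 1 at 3.82 CPM and GIF-DTR 3 at 3.73 CPM (edgeR adjusted p = 0.42), and 0.93 above it without GIF-DTR 1. The difference of GIF/ATP4B-DTR from GIF-DTR, 0.51 ± 0.59, was smaller than its error and changed sign to −0.18 without GIF/ATP4B-DTR 3. Cldn7 was 1.30 ± 0.60 above ATP4B-DTR in GIF/ATP4B-DTR (edgeR adjusted p = 0.49), with overlapping samples, and by only 0.32 without GIF/ATP4B-DTR 1.

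Cldn5 was 1.64 ± 0.73 log2 units lower in GIF/ATP4B-DTR than in GIF-DTR, with no overlap (edgeR adjusted p = 0.261) and a range of −2.31 to −1.12 with 1 sample left out. With Ddx3y and Eif2s3y expression as a covariate the difference was −3.16 (edgeR adjusted p = 0.576). The endothelial sum was likewise lower, as given above. Cldn12 was 0.17 ± 0.11 higher in GIF/ATP4B-DTR than in GIF-DTR with no overlap (edgeR adjusted p = 0.418). Groups did not overlap for 0, 2 and 3 of the 10 genes in the 3 comparisons, against 16.9%, 15.1% and 26.4% of all genes. The differences of Cldn18 between lines were −0.06 ± 0.17, 0.19 ± 0.17 and 0.24 ± 0.17, for GIF-DTR and GIF/ATP4B-DTR against ATP4B-DTR and for GIF/ATP4B-DTR against GIF-DTR, all with overlapping samples. For Cldn1, Cldn3, Cldn15 and Cldn23 the edgeR adjusted p was 0.365 or more in every comparison of lines.

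**Figure D3:**
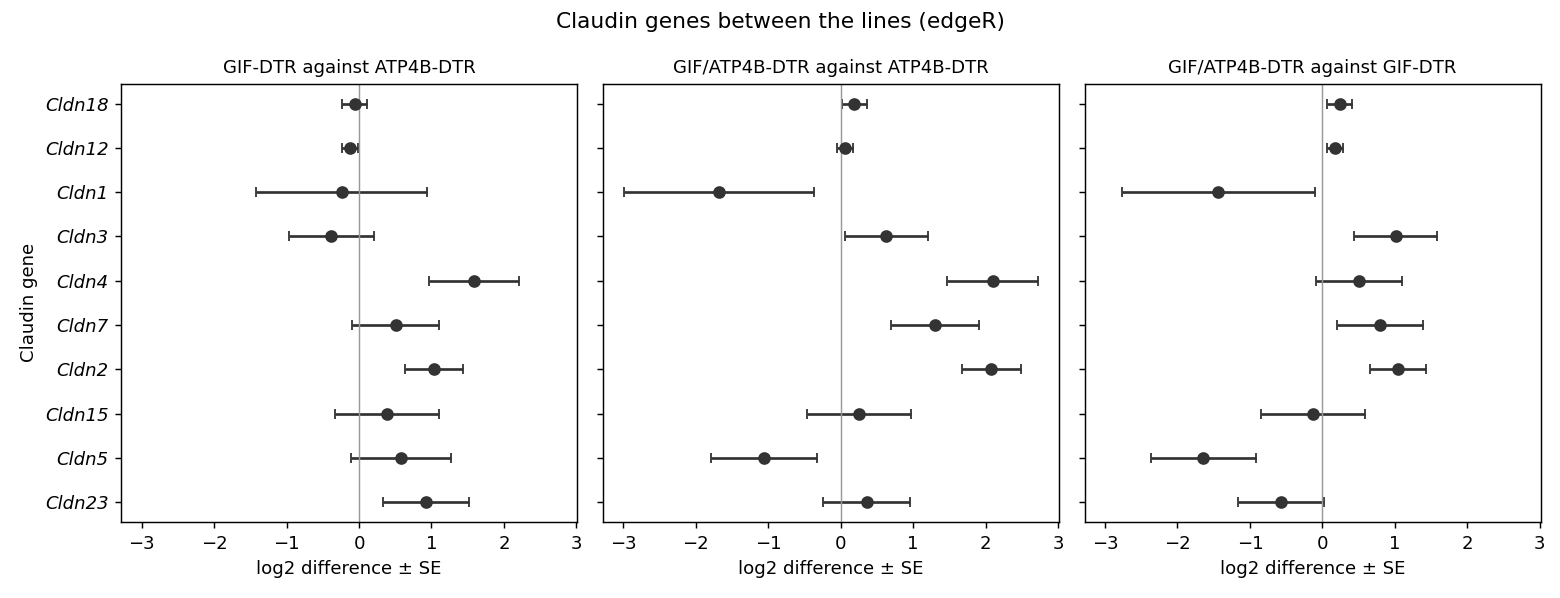
Points are log2 differences of 10 claudin genes between pairs of lines from the edgeR model, bars are standard errors, and the 3 panels share one axis. Cldn2 and Cldn4 lie to the right of 0 in all 3 panels, furthest in GIF/ATP4B-DTR against ATP4B-DTR at 2.08 and 2.10, and no gene passed the adjusted threshold.

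Of the 23 other claudin genes in the table, 11 had no count in any library and 6 had more than 3 counts in at least 1. Only Cldn8 and Cldn34c1 had enough counts to be tested. Cldn8 (ENSMUSG00000050520.4, chromosome 16, 88560828 to 88563183, minus strand), a sealing claudin of tight epithelia, stood at 5.70 and 5.32 CPM in control. The ATP4B-DTR samples had 3.31, 2.46 and 2.57 CPM, the GIF-DTR samples 4.82, 6.25 and 4.92 CPM, and the GIF/ATP4B-DTR samples 2.86, 2.86 and 2.99 CPM. It fell by 0.99 ± 0.26 on the log2 scale in ATP4B-DTR and by 0.92 ± 0.26 in GIF/ATP4B-DTR (edgeR adjusted p = 0.0205 and 0.0182). In GIF-DTR the difference was −0.05 ± 0.26 (edgeR adjusted p = 0.929). GIF-DTR was 0.94 ± 0.24 above ATP4B-DTR without overlap, but this difference between the lines did not pass (edgeR adjusted p = 0.152).

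Both calls of Cldn8 were lost with plain library totals, with differences of −0.67 and −0.60 (edgeR adjusted p = 0.0963 and 0.116). They were lost also when either control was left out, with adjusted p values from 0.0624 to 0.0847 and differences between −1.04 and −0.87. They were lost as well with only the 2 groups compared (edgeR adjusted p = 0.0731 and 0.0608), and that in ATP4B-DTR with Ddx3y and Eif2s3y expression as a covariate (log2 difference −0.74, edgeR adjusted p = 0.216). Without ATP4B-DTR 2 or ATP4B-DTR 3 the call in ATP4B-DTR was lost as well (edgeR adjusted p = 0.0612 and 0.0513). Cldn34c1, a gene of a cluster of near-identical copies on chromosome X, was between 0.46 and 1.41 CPM in all libraries, had divided reads in 3 of them and passed in no comparison. Cldn6, singled out after its values were seen, had 0 and 1 counts in control, 6, 2 and 4 in ATP4B-DTR, 7, 12 and 6 in GIF-DTR and 10, 8 and 10 in GIF/ATP4B-DTR. It was too low to be tested, and its pooled ratios of 7.07, 14.0 and 14.8 had exact 95% intervals from as low as 1.05, 2.30 and 2.45.

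The junction proteins around the claudins were examined against control from 3 lists, with Epcam beside them. Occludin (Ocln), which lies in the same strands as the claudins, was 140 and 118 CPM in control and 90.7 to 138 CPM in the lines, with log2 differences of −0.24, −0.26 and −0.21 (edgeR adjusted p = 0.387, 0.371 and 0.400). Of 11 membrane proteins of the tight junction other than claudins, 0, 0 and 1 were called in the 3 lines, against 21.6%, 16.8% and 33.6% of all genes. Unadjusted, 2, 1 and 4 had a p under 0.05, against 34.8%, 31.4% and 44.5% of all genes. The 1 called was Crb3, an apical polarity protein, which rose by 0.64 ± 0.17 on the log2 scale in GIF/ATP4B-DTR (edgeR adjusted p = 0.0137) from 73.7 and 48.3 CPM in control to 94.8, 90.8 and 99.5 CPM. Without control 2 the difference was 0.36 and did not pass (edgeR adjusted p = 0.147). The median of the list was −0.24, −0.20 and −0.27.

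Of 16 proteins of the cytoplasmic plaque, the ATP4B-DTR line had 3 called (1 higher, 2 lower), the GIF-DTR line 1 (higher) and the GIF/ATP4B-DTR line 6 (1 higher, 5 lower), with medians of −0.35, −0.30 and −0.40. Beside the 21.6%, 16.8% and 33.6% of all genes called, the shares in the first and last were near the background. Tjp1, which encodes the scaffold ZO-1 that binds claudin tails, was 200.1 and 152 CPM in control and 85.1 to 152 CPM in the lines, and did not pass in any line (edgeR adjusted p = 0.205, 0.0956 and 0.103). Ybx3, a nucleic acid binding protein that docks on ZO-1, was the gene called higher in all 3 lines, by 0.63, 0.57 and 1.00 on the log2 scale (edgeR adjusted p = 0.0263, 0.0471 and 0.00161). Its call was kept in 14, 8 and 20 of 20 alternatives, with adjusted p values up to 0.166, 0.216 and 0.0230, and those in ATP4B-DTR and GIF-DTR were lost without either control. Those lower in ATP4B-DTR were Amotl2, an angiomotin family scaffold (−0.96), and Patj, a polarity scaffold (−0.54). Those lower in GIF/ATP4B-DTR were Amotl1 (−1.47), Amotl2 (−0.74), paracingulin Cgnl1 (−0.66), Magi1 (−0.59) and Pard6b (−0.49). Amotl1 rested on control 2, in which it was 34.5 CPM beside 10.1 CPM in control 1. Without control 2 its difference was −0.32 (edgeR adjusted p = 0.541). The calls of Magi1, Cgnl1 and Pard6b in GIF/ATP4B-DTR were kept in 10, 13 and 13 of 20 alternatives and that of Patj in ATP4B-DTR in 10, each of them being lost without either control. Those of Amotl2 were kept in 20 and 19 of 20.

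Of 14 adherens junction and desmosome genes, 3, 3 and 4 were called in the 3 lines, near the 21.6%, 16.8% and 33.6% of all genes. The adhesion protein Nectin1 rose from 3.46 and 3.66 CPM in control to 6.41 to 9.54 CPM in the lines, by 1.19, 1.19 and 1.01 on the log2 scale (edgeR adjusted p = 0.0034, 0.0052 and 0.00425). Nectin3 rose by 0.82 and 0.80, and the desmosomal plakophilin Pkp2 by 0.45 and 0.68, in GIF-DTR and GIF/ATP4B-DTR. Plakoglobin (Jup) fell by 0.99 in ATP4B-DTR and by 1.03 in GIF/ATP4B-DTR, and E-cadherin (Cdh1) fell by 0.61 in ATP4B-DTR. The calls of Nectin1 were kept in all 20 alternatives in each line, that of Cdh1 in 14 of 20 and that of Pkp2 in GIF-DTR in 15 of 20. Both calls of Nectin3 were lost without control 2 (edgeR adjusted p = 0.135 and 0.101), and that in GIF-DTR also with Ddx3y and Eif2s3y expression as a covariate (log2 difference 0.56, edgeR adjusted p = 0.363). Also lost without control 2 was the call of Pkp2 in GIF-DTR (edgeR adjusted p = 0.186). Those of Jup in ATP4B-DTR (edgeR adjusted p = 0.0542) and of Cdh1 (log2 difference −0.36, edgeR adjusted p = 0.233) were lost without control 1.

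Epcam, a surface protein that binds claudin 7, was 182 and 155 CPM in control. The ATP4B-DTR samples had 325, 259 and 192 CPM, the GIF-DTR samples 254, 208 and 220.3 CPM, and the GIF/ATP4B-DTR samples 273, 260.4 and 254 CPM. It rose by 0.62 ± 0.20 on the log2 scale in ATP4B-DTR and by 0.64 ± 0.20 in GIF/ATP4B-DTR (edgeR adjusted p = 0.0443 and 0.0271), and the difference in GIF-DTR was 0.43 ± 0.20 (edgeR adjusted p = 0.157). The call in ATP4B-DTR was kept in 9 of 20 alternatives. The difference ranged from 0.41, without ATP4B-DTR 1 (edgeR adjusted p = 0.131), to 0.95, and the call was lost without either control, without ATP4B-DTR 2, with only the 2 groups compared, with the gene length trend removed and without any of 5 samples of the other lines. That in GIF/ATP4B-DTR was kept in 15 of 20 and lost without control 2, without any 1 sample of its own line, and with the gene length trend removed (log2 difference 0.41, edgeR adjusted p = 0.099).

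**Figure D4:**
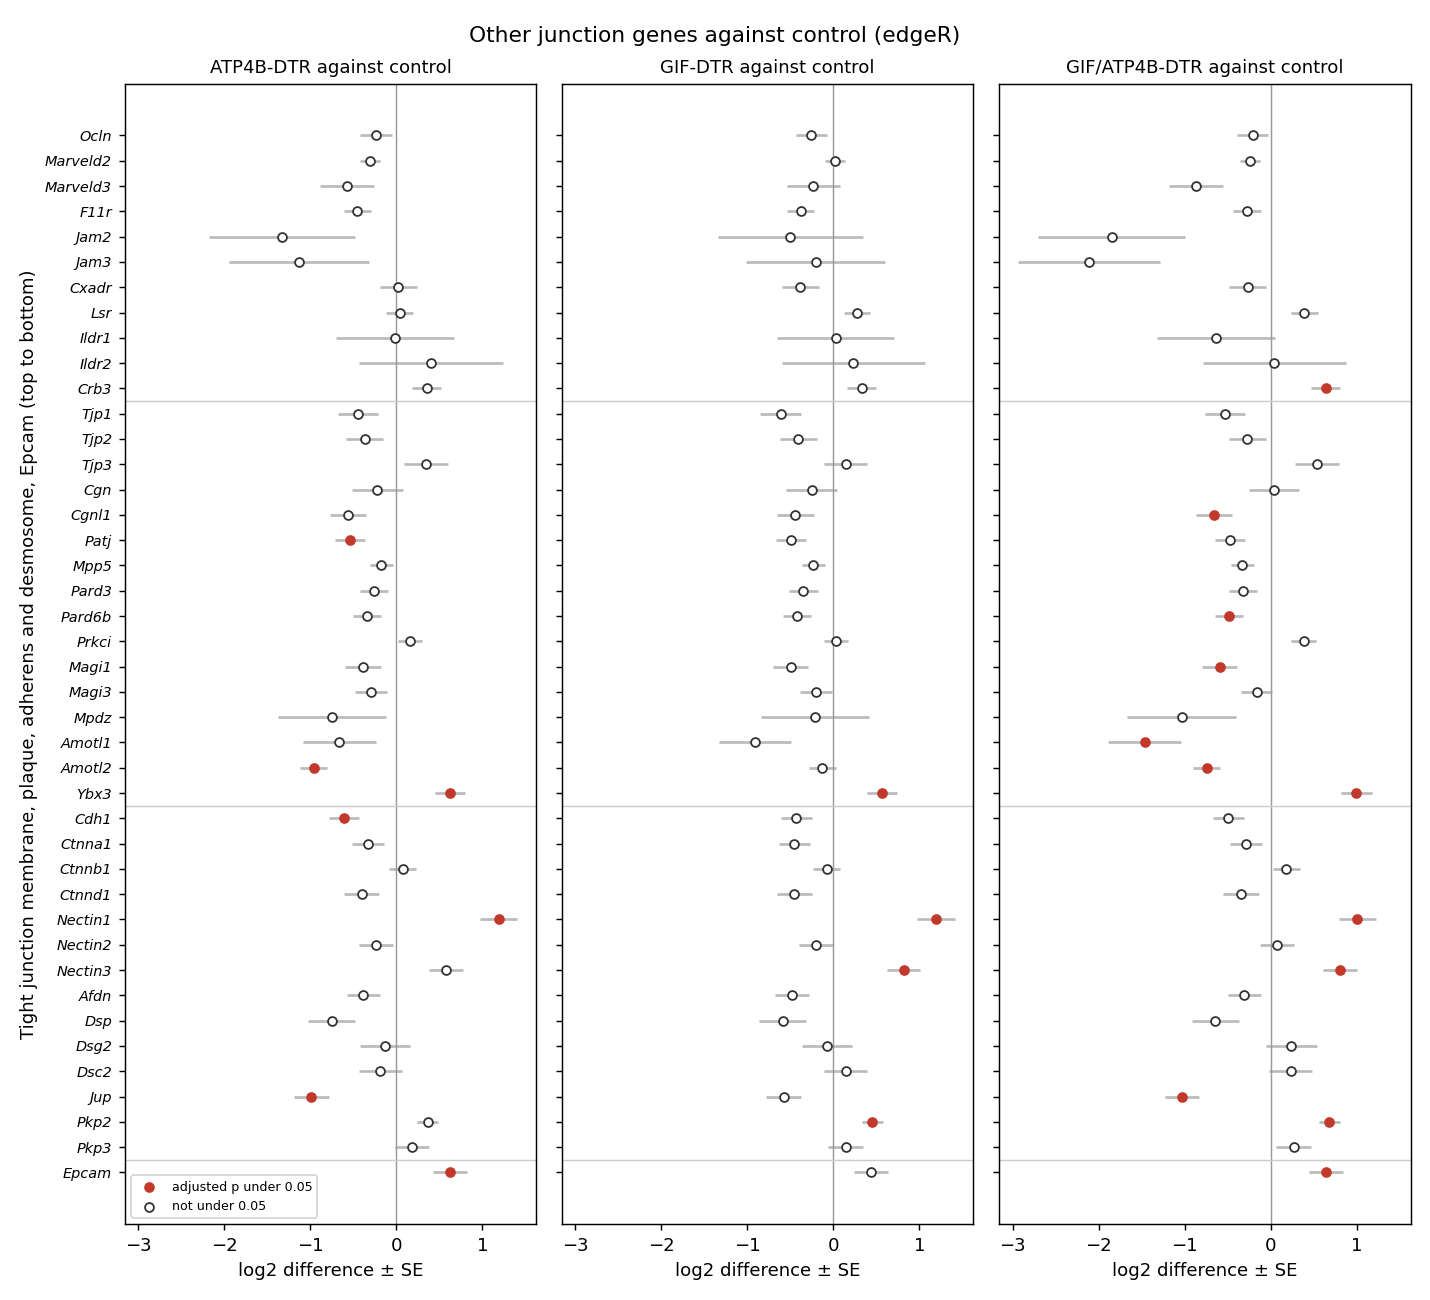
Points are log2 differences from control of junction genes other than claudins in each line, bars are standard errors, and filled points have an edgeR adjusted p under 0.05. The 4 blocks from top to bottom are tight junction membrane proteins, plaque proteins, adherens and desmosome proteins and Epcam, and called genes lie on both sides of 0.

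The genes whose log2 CPM followed that of Cldn2 most closely over the 11 samples, among 14121 genes compared, were Cdca7 (Pearson r 0.988), Cftr (0.986), Nop56 (0.982), Mcm4 (0.980) and Slbp (0.979). Over the 9 samples of the lines alone, the r of these 5 genes with Cldn2 was 0.922, 0.899, 0.884, 0.865 and 0.849. Cftr encodes the chloride channel of cystic fibrosis and Mcm4 a subunit of the replicative helicase. Cftr was 0.36 and 0.28 CPM in control, and its means in the lines were 11.6, 14.7 and 30.2 CPM, beside 6.77 ± 3.63, 13.9 ± 3.53 and 28.7 ± 12.3 CPM (SD, n = 3) for Cldn2. For Cldn18 the closest were Rab7 (r 0.960), Sptlc2 (0.944), Nipal2 (0.943), Galnt4 (0.942) and Dlg1 (0.939). These correlations are descriptions over samples that share library scaling and the split between control and lines.

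Markers of other epithelia were set beside Cldn2 and Cldn4, since both genes are known from tissues outside the corpus. Of 9 intestinal genes, the regulators Cdx1, Cdx2 and Isx were at 0.207 CPM or less in every library. The sum of the 9 was 378 to 622 CPM in control and 378 to 902 CPM in the lines. In all 9 samples of the lines Fabp2, a fatty acid binding protein, was above both controls (14.46 and 6.87 CPM, against 14.52 to 56.7 CPM), and the apolipoprotein Apoa4 was below both (90.4 and 90.7 CPM, against 6.01 to 62.5 CPM). The sum of the antral genes Gast and Pdx1 was 0.055 to 0.36 CPM in control, 0.92 to 8.82 CPM in ATP4B-DTR, 1.47 to 9.20 CPM in GIF-DTR and 1.75 to 7.22 CPM in GIF/ATP4B-DTR, so that it was higher in every sample of the lines than in control. This order came from Pdx1, at 0.055 to 0.31 CPM in control and 0.92 to 8.10 CPM in the lines, while Gast was over 1 CPM only in ATP4B-DTR 3, GIF-DTR 1 and GIF-DTR 2. Of 9 squamous genes 4 passed the floor, and their summed level was 0.28 to 0.99 CPM in control, 2.57 to 20.5 CPM in ATP4B-DTR, 1.38 to 1.89 CPM in GIF-DTR and 1.90 to 8.26 CPM in GIF/ATP4B-DTR. That sum was nearly all Krt13, up to 20.2 CPM, and Ivl, up to 6.02 CPM, while Krt5, Trp63 and Sprr3 had no count in any library and Krt14 and Krt4 were at 0.202 CPM or less. The summed level of 8 proliferation genes was 233 to 319 CPM in control, 582 to 808 CPM in ATP4B-DTR, 542 to 790.5 CPM in GIF-DTR and 705 to 878 CPM in GIF/ATP4B-DTR. The summed level of 12 mucous neck and metaplasia genes overlapped between control and the lines, at 2476 to 3458 CPM and 2827 to 5999 CPM, and was made up mostly of Clu and Tff2. Of the 12, 6 (Cftr, Aqp5, Cd44, Wfdc2, Dmbt1 and Olfm4) were higher in all 9 samples of the lines than in both controls, as were 17.7% of all genes tested, and Muc6 was lower. Dmbt1 went from 49.98 and 38.0 CPM in control to 206 to 751 CPM, and Cftr from 0.36 and 0.28 CPM to 8.78 to 41.2 CPM. For 9 pancreatic acinar genes the sum was 40.7 to 50.4 CPM in control and 27.3 to 81.4 CPM in the lines, highest in ATP4B-DTR 2. Ctrb1, 1 of the 9, was 5.93 CPM there and at most 0.36 CPM elsewhere. For 4 mesothelial genes the sum was 3.05 to 5.88 CPM in control and 1.18 to 23.4 CPM in the lines. The part of any of these in the levels of Cldn2 and Cldn4 was not tested.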

How the data were processed

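The authors deposited 1 table of expected counts per gene for all 11 samples. That unit was read from the values, since 30.7% of the nonzero entries are fractional. The labels' protocols name total RNA from corpus mucosa and a stranded, poly(A)-selecting library kit. The submitters' processing notes name the build mm10. The aligner, the quantifier and any batch are not given in the sources used here. The design had been written for whole counts, so the expected counts were rounded to whole numbers and the planned tests kept. No member had a fractional count.

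Samples were grouped by genotype label. Whether replicates are separate animals is not stated, so p-values set group differences against the spread between these samples, which may be technical. Replicate numbers were given in accession order for the lines, so no samples are paired. Symbols were matched to 34582 of 34866 identifiers (99.2%), and coordinates and exon lengths came from GENCODE M21. Genes were filtered with filterByExpr, scaled by TMM and fitted with 1 coefficient per genotype over all 11 samples by edgeR 4.0.16 (robust quasi-likelihood, common biological coefficient of variation 26.6%) in R 4.3.3. P-values were adjusted by Benjamini-Hochberg over 14889 genes and called under 0.05. Where 1 control is left out, the lone control is taken to vary like the other groups. The fit was tested on simulated data. The 95% intervals of pooled count ratios are exact and two-sided.

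The named genes were fixed by rule: all members, other claudins that passed the filter, called genes of 3 junction lists (at most 3 per direction, list and comparison) with Ocln, Tjp1 and Epcam, the 5 genes most correlated with Cldn2 and with Cldn18, and marker genes as values beside a result. Magi1, Pard6b and Cldn6 fall outside the rule and were named after their values were seen. A further listed gene is not reported here. Members and lists were chosen with earlier results of these data known. The alternatives were DESeq2 1.42.0 and its size factors, library totals, scaling without the 50 most abundant genes, other count filters, only the groups compared, a gene length trend, a Y-linked covariate, leaving out each sample, and the longest transcript as length.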

Additional observations from a re-analysis of the deposited data

Results flagged for a closer look

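Amotl2, an angiomotin family scaffold of the junction plaque, differed between lines by a test of the difference itself. It was 45.5 and 46.1 CPM in control. The ATP4B-DTR samples had 20.5, 22.3 and 27.8 CPM, the GIF-DTR samples 44.7, 39.8 and 41.2 CPM, and the GIF/ATP4B-DTR samples 23.0, 28.3 and 30.8 CPM. GIF-DTR was 0.83 log2 units above ATP4B-DTR (edgeR adjusted p = 0.0340), and GIF/ATP4B-DTR differed from GIF-DTR by −0.62 (edgeR adjusted p = 0.0463), both without overlap of samples. The adjusted p of the first ranged from 0.000127 to 0.189 over 21 alternatives, 12 of which kept the call. That of the second ranged from 0.00805 to 0.759 over 20, 6 of which kept it. All GIF-DTR libraries lacked Ddx3y and Eif2s3y expression, and with this as a covariate neither difference passed. The first was then 0.74 (edgeR adjusted p = 0.155), and 0.72 in only the samples without these genes (edgeR adjusted p = 0.189). The second was −0.33 (edgeR adjusted p = 0.759).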

How the results depend on the processing

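The planned covariate of 4 Y-linked genes could not be fitted because every library met it. Expression of Ddx3y and Eif2s3y, chosen after seeing the data, took its place, as did the comparison of samples without them. With 10 counts required in every sample, 6 of the 10 claudins are not tested, Cldn2 and Cldn4 among them, and 0, 0 and 1 were called against control in the 3 lines. With no filter 1 was called in ATP4B-DTR. Leaving out 1 sample gave 1 to 2 calls in ATP4B-DTR (1 without either control, ATP4B-DTR 1 or ATP4B-DTR 2), 1 to 3 in GIF-DTR (1 without either control) and 2 to 3 in GIF/ATP4B-DTR. In GIF/ATP4B-DTR against ATP4B-DTR, DESeq2 called 2 and the fit without ATP4B-DTR 3 called 1, against 0 in the other single-sample omissions.

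Tight junction genes other than claudins called in ATP4B-DTR against control were 5 with 10 counts in every sample, 1 with the covariate, and 1 to 4 with 1 sample left out (1 without ATP4B-DTR 2). In GIF-DTR they were 0 with DESeq2 size factors, 3 with library totals, 3 by DESeq2, 0 with the covariate and 0 to 2 with 1 sample left out. In GIF/ATP4B-DTR they were 12 by DESeq2, 12 with 10 counts in every sample, 3 with only those 2 groups, and 2 to 9 with 1 sample left out (2 without control 2).

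Of all genes, the covariate left 1849 called in ATP4B-DTR and 438 in GIF-DTR against control, and 23 in GIF-DTR against ATP4B-DTR. It left 14 when GIF/ATP4B-DTR was set against GIF-DTR, and 1 when it was set against ATP4B-DTR. Library totals gave 4163 in GIF-DTR against control. DESeq2 gave 360 for GIF-DTR against ATP4B-DTR, and for GIF/ATP4B-DTR it gave 278 against ATP4B-DTR and 927 against GIF-DTR. In GIF/ATP4B-DTR against ATP4B-DTR, no filter gave 57 and the 2 groups alone 1. Samples without Ddx3y and Eif2s3y gave 30 in GIF-DTR against ATP4B-DTR. With 1 sample left out, counts ran from 1315 to 3329, 871 to 2629 and 2874 to 5042 against control, all lowest without control 2, and, in the order of the DESeq2 counts, from 17 to 140, 0 to 43 and 160 to 393 between the lines.

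Differences between lines that changed sign were those of claudins, none of which passed the test. With the covariate, they were 0.80 for Cldn1 (GIF-DTR against ATP4B-DTR), −0.58 for Cldn15 (GIF/ATP4B-DTR against ATP4B-DTR), and −0.67 for Cldn4 and −0.47 for Cldn7 (GIF/ATP4B-DTR against GIF-DTR). With 1 sample left out, GIF-DTR against ATP4B-DTR ran from −1.13 to 0.25 for Cldn1, −0.92 to 0.068 for Cldn3, −0.089 to 1.08 for Cldn15, −0.10 to 0.020 for Cldn18 and −0.10 to 1.29 for Cldn23. GIF/ATP4B-DTR against ATP4B-DTR ran from −0.12 to 0.93 for Cldn15 and −0.11 to 0.72 for Cldn23. GIF/ATP4B-DTR against GIF-DTR ran from −0.18 to 1.17 for Cldn4, −0.19 to 1.27 for Cldn7, −0.50 to 0.34 for Cldn15 and −1.04 to 0.45 for Cldn23. In GIF/ATP4B-DTR against ATP4B-DTR the covariate kept the sign but lowered Cldn4 from 2.10 to 1.42 and Cldn7 from 1.30 to 0.59. The causes were not tested. The difference of Cldn2 kept its sign under all 20, 19 and 19 alternatives between the lines.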
